A study of Homo sapiens with 12 samples.

Results

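Sorafenib is a kinase inhibitor given for hepatocellular carcinoma (HCC), and 9 genes that encode kinases it is known to inhibit are described here: BRAF, ARAF, KDR, FLT1, FLT4, PDGFRA, PDGFRB, KIT and RET. They were chosen by symbol, and all 9 were found among 98711 genes listed, of which 27249 carry an Ensembl identifier. RNA was sequenced from Huh7 and HepG2, which are human liver tumour cell lines, with 3 samples in each of 4 groups (resistant and parental cells of each line, 12 samples in all). The labels call both lines wild type. Resistant cells had been selected with sorafenib in rising concentrations from a first dose of 10 μmol over 8 months, and parental cells are the untreated cells of the same line. Nothing in the labels says that the 3 samples of a resistant line came from separate selections, so each line is taken here as 1 selected population. The p-values therefore measure the spread between these samples, which may be technical.

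BRAF and ARAF are serine/threonine kinases of the RAF family. On activation by RAS they phosphorylate MEK, which phosphorylates ERK, and this cascade drives growth in many tumours. The other 7 genes encode receptor tyrosine kinases. KDR, FLT1 and FLT4 are receptors of the VEGF family and belong mainly to endothelial cells, PDGFRA and PDGFRB bind the PDGF ligands in mesenchymal cells and pericytes, KIT is the receptor of stem cell factor (KITLG), and RET is activated by GDNF through a GFRA co-receptor. In a tumour, sorafenib therefore meets targets in the cancer cells and in the vessels and stroma around them. The cultures measured here are of tumour cell lines, without vessels or stroma.

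The deposited values are decimals with no stated unit. They have the pattern of reads scaled by gene length and by depth, and are called FPKM here (reads scaled per length of exon and per depth). Between 12290154 and 19286011 reads lie behind a sample, and samples of the same group correlated with a Pearson r of 0.981 to 0.991 on log2(FPKM + 1). All 10 hepatocyte markers examined, among them ALB, AFP and HNF4A, reached 1 FPKM in every group. Of 8 endothelial markers only PECAM1 did, at 1.12 to 3.61 FPKM over the 12 samples, while CDH5 was at most 0.0494 FPKM. Of 8 fibroblast or pericyte markers, 1 did in each group (ACTA2 in both HepG2 groups, COL1A2 in resistant Huh7 cells and RGS5 in parental Huh7 cells).

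Of the 9 kinases, 3 were at 1 FPKM or more in all 12 samples: BRAF, ARAF and PDGFRB. The other 6, namely KDR, FLT1, FLT4, PDGFRA, KIT and RET, were below 1 FPKM in all 12 samples and are called not expressed by that rule. Among all 18898 protein-coding genes listed, 36.1% were below 1 FPKM throughout. Both RAF kinases were thus measured in the tumour cells, together with 1 of the 7 receptors.

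**Figure D1:**
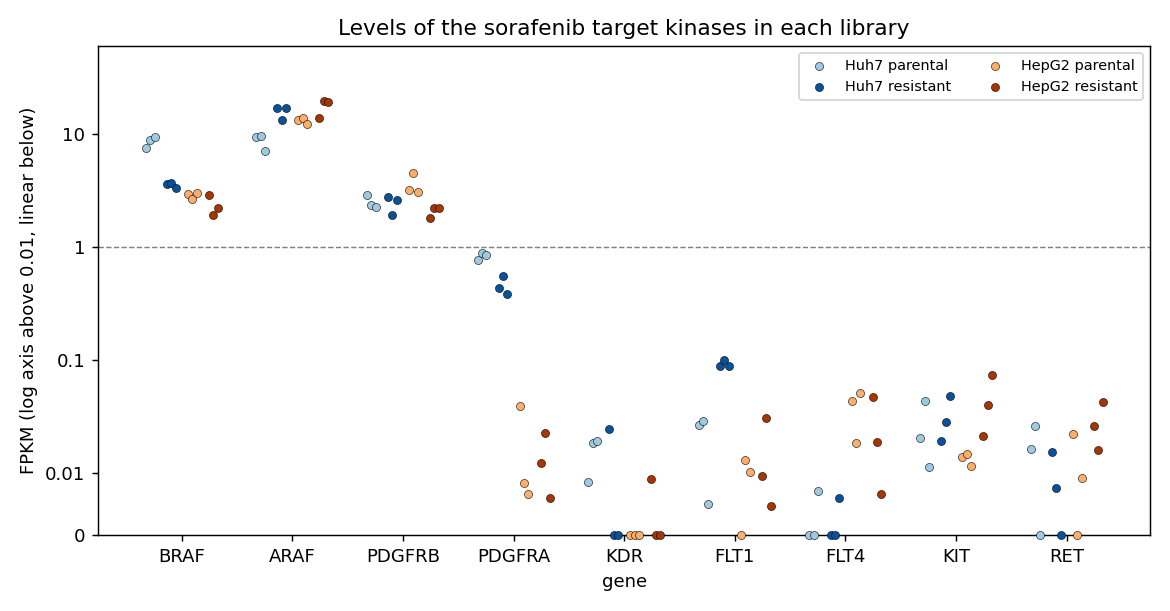
FPKM of the 9 kinases in each of the 12 samples, on an axis that is logarithmic above 0.01 and linear below; each point is 1 sample, and the dashed line marks 1 FPKM. BRAF, ARAF and PDGFRB lie above the line in every sample, PDGFRA lies just under it in Huh7 only, and the other 5 receptors stay under 0.1 FPKM.

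The VEGF receptors were close to the limit of detection. KDR, the main receptor for VEGF on blood vessels, had 0 to 3 reads per sample, and 3 reads, which is the limit that a count of 0 allows, correspond to 0.0237 to 0.0372 FPKM for this gene. FLT4, the receptor of lymphatic endothelium, had 0 or 1 read in Huh7 samples and 1 to 7 reads in HepG2 samples. No level of KDR can be told from 0 in any sample, and FLT4 exceeded 3 reads only in HepG2.

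FLT1, which binds VEGFA, VEGFB and PGF, showed a difference within Huh7 at a very low level. Resistant Huh7 cells had 21, 24 and 21 reads (0.0881, 0.0990 and 0.0879 FPKM) and parental Huh7 cells had 6, 6 and 1 (0.0266, 0.0283 and 0.00492 FPKM). The resistant samples were all above the parental ones, and the summed reads, set against depth, were 4.52 times higher (95% interval 2.47 to 8.93, exact Clopper-Pearson). This interval covers counting error only, since the reads carry no molecular identifiers and may be copies of one molecule. In HepG2 the gene had 1 to 7 reads in resistant and 0 to 2 in parental samples, which is at most 0.0305 FPKM. With no filter on low values, the Huh7 difference had an adjusted p of 0.012 (limma) and the change differed between the lines (adjusted p = 0.0167), but FLT1 stayed under 0.1 FPKM in every sample.

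PDGFRA, a PDGF receptor that binds the A and C chains among others, was the only kinase of the 6 that came near 1 FPKM, and it did so only in Huh7. Parental Huh7 cells had 0.756, 0.884 and 0.852 FPKM, and resistant Huh7 cells had 0.428, 0.549 and 0.384 FPKM. These groups did not overlap, and the gene was 1.83 times higher in parental cells on summed reads set against depth (95% interval 1.56 to 2.14, exact Clopper-Pearson, counting error only). In HepG2 it had 1 to 5 reads per sample, at most 0.0391 FPKM. It fell under the filter of the test. With a filter of 10 reads in every sample instead, the Huh7 difference was -0.33 on the log2(FPKM + 1) scale (adjusted p = 0.00108, limma). This value was not corrected for the dependence on GC content that is described below for Huh7.

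KIT and RET were at or just above the limit of 3 reads. KIT, the receptor of stem cell factor on mast cells and blood progenitors, had 1 to 7 reads per sample in all groups, at most 0.0731 FPKM, and exceeded 3 reads in 4 of the 12 samples. In HepG2 it had 2, 4 and 7 reads in resistant samples and 1 in each parental sample, without overlap. RET, the receptor that signals for GDNF, had 0 to 5 reads, at most 0.0420 FPKM, and exceeded 3 in 1 sample. With no filter, neither passed the test in either line (adjusted p from 0.348 to 0.766, limma). KDR and FLT4 did not pass it either (adjusted p from 0.676 to 0.982).

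A low value in these tables does not by itself show that a transcript is rare. B2M, the light chain of MHC class I that nearly every cell makes, was listed at 1.10 to 2.45 FPKM, while ACTB was at 560.0 to 2620 FPKM. How reads that match several places or several listed genes were counted is not given in the sources used here, and its part in the low values was not tested. B2M itself is overlapped by 0 other listed genes. For GAPDH (209 to 715 FPKM) and RPLP0 (84.5 to 322 FPKM), 1 other listed gene covers 100% of the span. No other listed gene overlaps the span of FLT4, KIT or PDGFRB. Non-coding genes at 0 to 0.141 FPKM overlap part of KDR, FLT1, PDGFRA and RET. In GENCODE, AC058822.1 shares 1533 exon bases with PDGFRA on the same strand.

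BRAF was lower in resistant than in parental Huh7 cells. In Huh7, parental samples had 7.54, 8.73 and 9.33 FPKM and resistant samples 3.57, 3.67 and 3.33 FPKM, so that all resistant samples lay below all parental ones. The means were 8.53 ± 0.912 and 3.52 ± 0.176 FPKM (SD, n = 3 each), a 2.42-fold lower level in resistant cells. On the log2(FPKM + 1) scale, which understates changes of low genes, the difference was -1.07 (SE 0.11, adjusted p = 9.55e-05, limma's moderated test, Benjamini-Hochberg over 12554 genes). In HepG2, parental samples had 2.93, 2.64 and 2.97 FPKM and resistant samples 2.89, 1.91 and 2.22 FPKM. These groups overlapped, and the difference of -0.21 (95% interval -0.57 to 0.14) did not pass the test (adjusted p = 0.355, limma).

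ARAF was higher in resistant Huh7 cells. Parental Huh7 samples had 9.38, 9.64 and 7.02 FPKM and resistant ones 16.98, 13.4 and 16.96, again with no overlap. The level rose 1.82-fold, from 8.68 ± 1.44 to 15.8 ± 2.08 FPKM (SD, n = 3 each), with a log2 difference of 0.80 (SE 0.15, adjusted p = 0.00148, limma), under the threshold of 1. In HepG2, parental samples had 13.2, 13.9 and 12.3 FPKM and resistant samples 13.8, 19.5 and 19.1. Resistant replicate 1 lay within the parental range, and the difference of 0.37 (95% interval 0.00 to 0.75) did not pass (adjusted p = 0.138). Without that sample it was 0.52 (adjusted p = 0.0434, limma).

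**Figure D2:**
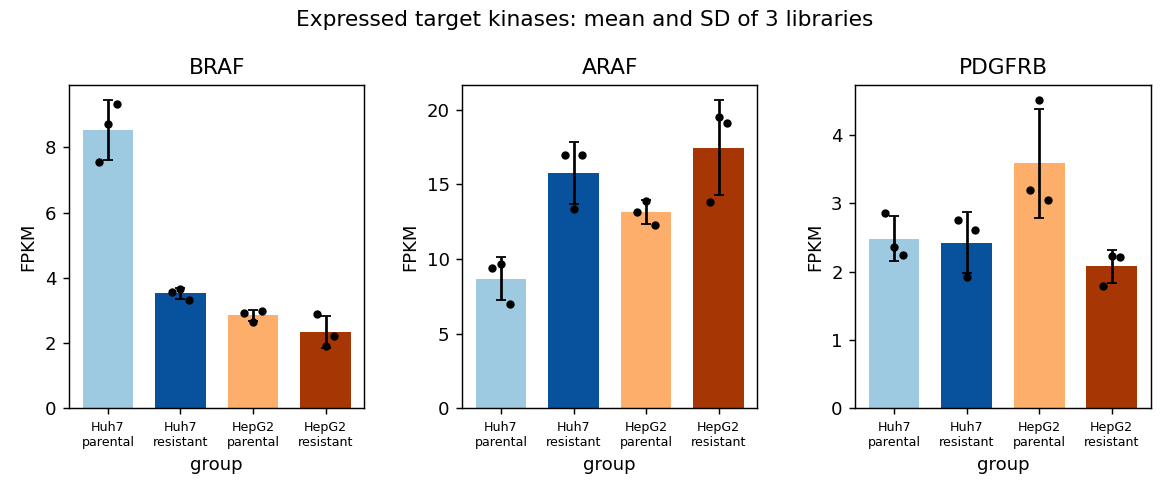
FPKM of BRAF, ARAF and PDGFRB in the 4 groups; bars are means of 3 samples, error bars are SD and points are samples, with each axis starting at 0. The bar of BRAF in parental Huh7 cells (8.53 FPKM) stands above the other 3 groups (2.34 to 3.52), and that of PDGFRB in parental HepG2 cells (3.58) above its other groups (2.07 to 2.48).

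PDGFRB, the PDGF receptor of pericytes and fibroblasts, was expressed at a low level in all samples and differed in HepG2. Parental HepG2 cells had 3.19, 4.50 and 3.05 FPKM and resistant HepG2 cells 1.80, 2.22 and 2.21 FPKM. The groups did not overlap, and the level fell 1.73-fold, from 3.58 ± 0.803 to 2.07 ± 0.242 FPKM (SD, n = 3 each), with a log2 difference of -0.56 (SE 0.17, adjusted p = 0.0473, limma), under the threshold of 1. With any 1 of the 6 HepG2 samples removed it no longer passed (log2 difference from -0.65 to -0.42, adjusted p from 0.0528 to 0.135), nor did it with no filter on low values (adjusted p = 0.114). In Huh7, parental samples had 2.85, 2.36 and 2.24 FPKM and resistant samples 2.75, 1.92 and 2.60, with overlapping groups and a difference of -0.03 (95% interval -0.34 to 0.28, adjusted p = 0.852). The reads behind a PDGFRB value number 217 to 395, against 761 to 3534 for BRAF. Of the pericyte markers, RGS5 had 0.290, 0.179 and 0.130 FPKM in parental and 0.113, 0.080 and 0.068 in resistant HepG2 cells (8 to 26 reads). CSPG4 went the other way, with 0.220, 0.196 and 0.353 FPKM in parental and 0.370, 0.515 and 0.533 in resistant HepG2 cells. ACTA2 was at 13.4 to 21.6 FPKM in parental and 13.6 to 20.3 in resistant HepG2 cells. Each culture was of a single tumour cell line, and the share of its cells that express PDGFRB was not tested. In bulk RNA, fewer such cells and less RNA per cell cannot be told apart.

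The counts of kinases called can be read against those of all genes. In Huh7, 1 of the 3 kinases tested was called lower (adjusted p under 0.05 and a log2 difference beyond 1), where 14.0% of all 12554 genes tested were, and 0 were called higher, where 8.59% were. At an unadjusted p under 0.05, 1 kinase (ARAF) was higher in Huh7, where 9145 of the 12554 genes passed in either direction. In that line, limma-voom on recovered reads called 0 kinases higher. In HepG2, 0 of 3 were called in either direction with limma, against 3.29% of 11762 genes called higher and 2.98% called lower. There, 0 were higher and 1 lower at an unadjusted p under 0.05, where 4300 of the 11762 genes passed in either direction. For HepG2, limma-voom called 0 kinases. Over all genes, 1079 were called higher and 1759 lower in Huh7 (706 and 731 with the GC dependence described next removed), and 387 higher and 350 lower in HepG2 (285 and 429 with median-ratio scaling). Groups without overlap were common too, at 74.5% of genes tested in Huh7 and 40.4% in HepG2. The median log2 difference of all genes was -0.04 in Huh7 and 0.12 in HepG2, so the fall of PDGFRB in HepG2 is larger relative to the other genes and the rise of ARAF there smaller.

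The base composition of the transcripts moved with the differences in Huh7. Across 12545 genes, the log2 difference in Huh7 rose with the GC content of the exons (Spearman correlation 0.628 across genes, which are not independent replicates), against 0.0259 in HepG2. The exons of BRAF hold 41.7% GC, those of ARAF 56.1% and those of PDGFRB 57.8%, with a median of 47.4% over all genes tested. BRAF, with the lowest GC content of these, fell, and ARAF, with a high one, rose. With the GC dependence of each library removed, BRAF differed by -0.49 in Huh7 (adjusted p = 0.000975, limma) and ARAF by 0.29 (adjusted p = 0.0346). Both kept their direction and passed the test, at less than the original size for each. PDGFRB, with no difference in Huh7 before, was then lower by 0.58 on the log2 scale in resistant cells (adjusted p = 0.000678). The same curve is subtracted at every level, while log2(FPKM + 1) compresses changes of low genes, so this step can overcorrect low genes. The co-receptor gene GFRA3, at 1.16 FPKM in parental and 0.0086 in resistant Huh7 cells, moved from -1.09 to -1.63. That is a larger fall than its levels allow on this scale. The part of overcorrection in the PDGFRB value was not tested. In HepG2, BRAF was then -0.32 (adjusted p = 0.0394), ARAF 0.29 (adjusted p = 0.0617) and PDGFRB -0.67 (adjusted p = 0.00368). The step also recentred each library, and the median log2 difference of all genes in HepG2 moved from 0.12 to 0.01. In HepG2, median-ratio scaling, which uses no GC content, gave -0.30 for BRAF (adjusted p = 0.215, limma). It gave 0.26 for ARAF (adjusted p = 0.291) and -0.65 for PDGFRB (adjusted p = 0.0316) there. BRAF in HepG2 thus passed with the GC dependence removed but not with this scaling. The part of recentring in the HepG2 values was not tested. Whether the GC dependence arose in the cells or in the libraries was not tested.

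**Figure D3:**
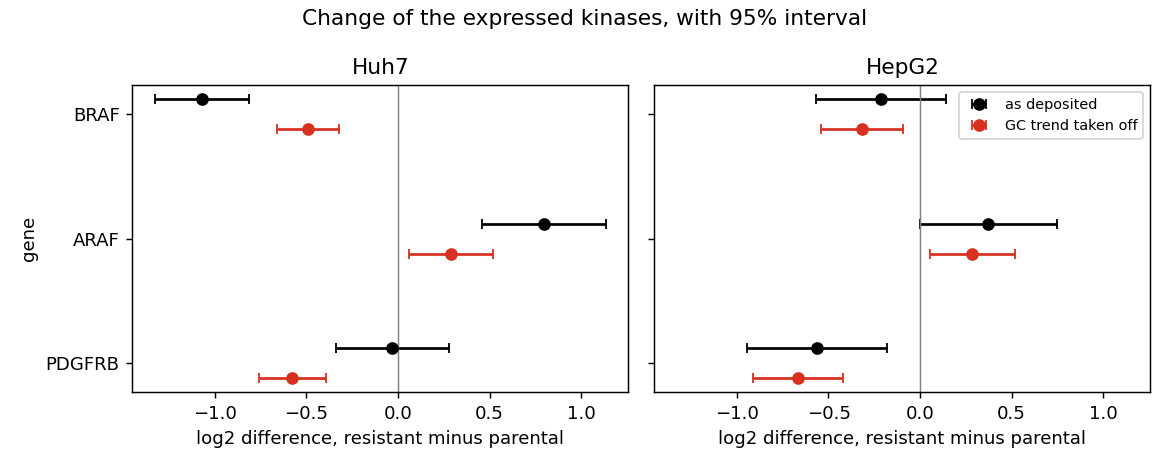
Difference between resistant and parental cells on the log2(FPKM + 1) scale for BRAF, ARAF and PDGFRB in Huh7 (left) and HepG2 (right); points are limma estimates and bars their 95% intervals, in black for the deposited values and in red with the GC dependence removed. In Huh7 the estimate of BRAF moves from -1.07 to -0.49 and that of PDGFRB from -0.03 to -0.58, while in HepG2 both sets lie close together.

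The interaction of cell line and resistance, fitted over all 12 samples, asked whether a kinase changed differently in the 2 lines. It passed for 2 of 3 kinases, where 56.3% of 10688 genes did. The change of BRAF was lower in Huh7 than in HepG2 by 0.86 on the log2 scale (-0.86, SE 0.18, adjusted p = 0.00151, limma), against a median of -0.11 over all genes. That of PDGFRB was higher in Huh7 by 0.53 (SE 0.21, adjusted p = 0.0459), and ARAF did not pass (0.42, adjusted p = 0.122). With the GC dependence removed, none of the 3 passed with limma (BRAF -0.20, adjusted p = 0.14; PDGFRB 0.08, adjusted p = 0.59; ARAF -0.01, adjusted p = 0.938). The PDGFRB interaction was also lost on removal of any one of 8 of the 12 samples (adjusted p from 0.0518 to 0.109).

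The lines already differed in BRAF before selection. In parental cells the gene was 3.00 times higher in Huh7 than in HepG2 (log2 difference 1.31, adjusted p = 6.16e-05, limma), and it was the only one of the 3 called, where 31.9% of 12796 genes were. That difference was 0.83 (adjusted p = 0.000161), under the threshold of 1, with the GC dependence removed. ARAF was lower in parental Huh7 than in parental HepG2 cells by -0.56 (adjusted p = 0.0111), and PDGFRB by -0.39, which did not pass (adjusted p = 0.065). The median of all genes in this comparison was 0.19. In resistant cells, 0 of 3 were called with limma, where 28.8% of 12550 genes were, and limma-voom called 0. At an unadjusted p under 0.05, 1 kinase was higher and 0 lower, where 8785 of the 12550 genes passed in either direction. There BRAF differed by 0.45 (adjusted p = 0.0173, and 0.0562 to 0.0613 without Huh7 resistant replicate 1 or 2 or HepG2 resistant replicate 3), ARAF by -0.13 (adjusted p = 0.489) and PDGFRB by 0.15 (adjusted p = 0.343). The order of BRAF levels was parental Huh7, resistant Huh7, parental HepG2 and resistant HepG2, of which the HepG2 groups overlapped. For ARAF it was resistant HepG2, resistant Huh7, parental HepG2 and parental Huh7, of which the first 3 overlapped, and for PDGFRB parental HepG2 came first. Resistant Huh7 samples overlapped for PDGFRB with those of parental Huh7 and of resistant HepG2, while the lowest parental Huh7 sample (2.24 FPKM) was just above the highest of resistant HepG2 (2.22).

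Ligands of receptors that were not expressed were themselves measured in these cells. Of 14 ligand genes of the receptors, 6 were tested in Huh7, of which 3 passed as higher and 2 as lower, where 32.7% of all genes tested passed as higher and 37.4% as lower. In HepG2, 6 were tested, and 2 passed as higher and 2 as lower, where 11.6% and 8.43% of all genes did. The median log2 difference of the ligands was 0.28 in Huh7 (-0.25 with the GC dependence removed) and -0.35 in HepG2, against -0.04 and 0.12 over all genes. Called genes were PDGFC and KITLG (lower) in Huh7, and PDGFA (lower), KITLG and GDNF (higher) in HepG2.

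PDGFC, which binds PDGFRA, had 11.1, 11.3 and 13.4 FPKM in parental and 1.43, 2.22 and 1.95 in resistant Huh7 cells. It was 6.41-fold lower in resistant Huh7 cells (log2 difference -2.18, adjusted p = 1.31e-05, limma) and the difference was -1.60 with the GC dependence removed. In HepG2 it was near 2 FPKM in all samples (1.76 to 2.57) and did not pass (adjusted p = 0.469). In Huh7, this ligand and its receptor PDGFRA were both at a lower level in resistant cells. PDGFRA fell under the filter of the test, so it has no value with the GC dependence removed. Its exons hold 44.9% GC, below the median of 47.4% over the genes tested in Huh7, and the part of GC content in its difference was not tested.

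KITLG, the ligand of KIT, moved in opposite directions. It had 18.2, 21.8 and 27.8 FPKM in parental and 7.93, 8.76 and 6.50 in resistant Huh7 cells (log2 difference -1.42, adjusted p = 0.000151, limma). This difference was -0.45 (adjusted p = 0.00209), within the threshold of 1, with the GC dependence removed. In HepG2 it had 3.13, 3.06 and 5.82 FPKM in parental and 15.2, 8.54 and 10.2 in resistant cells (1.31, adjusted p = 0.0117, and 0.0506 without HepG2 parental replicate 1). The interaction was -2.73 (adjusted p = 6.01e-05, and -1.63 with the GC dependence removed), and the groups overlapped in neither line, while KIT itself had at most 7 reads in any sample.

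PDGFA, a ligand of PDGFRA, was 5.62-fold lower in resistant HepG2 cells, with 6.48, 7.43 and 5.13 FPKM in parental and 1.31, 1.05 and 1.02 in resistant samples (log2 difference -1.78, adjusted p = 0.000498, limma). In Huh7 it was higher in resistant cells by 0.39 (adjusted p = 0.0186), a direction that turned to -0.15 with the GC dependence removed. The Huh7 difference also no longer passed without Huh7 resistant replicate 1 or 3 or Huh7 parental replicate 3 (adjusted p from 0.0627 to 0.0758). GDNF, the RET ligand, rose 3.58-fold in HepG2, from 2.30, 3.69 and 3.38 FPKM in parental to 10.8, 10.9 and 11.9 in resistant samples (1.58, adjusted p = 0.000895). In Huh7 it stayed under 1 FPKM, with 10 to 31 reads in parental and 2 in each resistant sample. The ligands of PDGFRB, PDGFB and PDGFD, were below 1 FPKM in all samples, at most 0.182 and 0.417 FPKM.

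**Figure D4:**
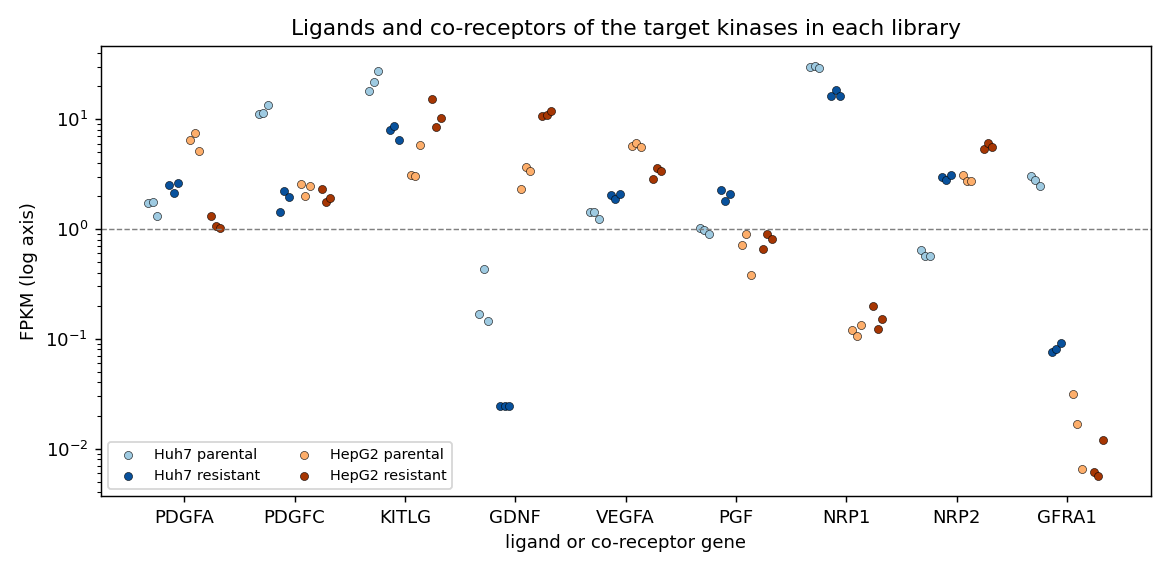
FPKM of ligands and co-receptors of the target receptors in each of the 12 samples, on a log axis; each point is 1 sample and the dashed line marks 1 FPKM. KITLG is lower in resistant than in parental Huh7 cells and higher in resistant than in parental HepG2 cells, and PDGFC differs in Huh7 only (11.9 against 1.86 FPKM).

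For the VEGF receptors, VEGFA, their best known ligand, was present in all samples although none of the receptors reached 1 FPKM. It was higher in resistant Huh7 cells (2.00 ± 0.107 against 1.37 ± 0.116 FPKM, SD, n = 3 each, log2 difference 0.34, adjusted p = 0.0161, limma), a difference that became -0.17 (adjusted p = 0.126) with the GC dependence removed. In HepG2 it was lower in resistant cells (3.27 ± 0.369 against 5.81 ± 0.232 FPKM, -0.68, adjusted p = 0.0119). VEGFB was listed at 0 to 0.316 FPKM, and a non-coding gene on the same strand covers 93.9% of its span.

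Among 6 co-receptors, 4 were tested in Huh7, of which 1 passed as higher and 3 as lower, where 32.7% and 37.4% of all genes did. In HepG2, 1 was tested and passed as higher, where 11.6% of all genes passed as higher and 8.43% as lower. NRP2, a co-receptor of the VEGF family, rose in both lines: from 0.650, 0.564 and 0.570 to 2.99, 2.77 and 3.13 FPKM in Huh7 (log2 difference 1.31, adjusted p = 3.03e-05, limma, and 0.96 with the GC dependence removed) and from 2.87 ± 0.228 to 5.64 ± 0.346 FPKM in HepG2 (SD, n = 3 each, 0.78, adjusted p = 0.0065). GFRA1, the co-receptor for GDNF, was 33.3-fold lower in resistant Huh7 cells, with 388 to 524 reads in parental and 14 to 17 in resistant samples (-1.79, adjusted p = 1.00e-05). GFRA3, the co-receptor for artemin, had 53, 35 and 33 reads in parental and 0, 0 and 1 in resistant Huh7 samples (adjusted p = 0.000103). In Huh7 these 3 genes reached the filter through 1 group only, so that a difference was built into their being tested.

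Downstream of the receptors, 9 of 9 adaptors were tested. In Huh7, 2 passed as higher and 5 as lower (median log2 difference -0.46, and -0.38 with the GC dependence removed), where 32.7% and 37.4% of all genes did, and in HepG2 0 and 2 did, where 11.6% and 8.43% did. The genes called lower in Huh7 were GAB1, a docking protein of receptor tyrosine kinases (5.05 against 15.0 FPKM, log2 difference -1.41), SOS1 and SOS2, which load RAS with GTP (-1.25 and -1.23), and PTPN11, the phosphatase SHP2 (-1.01), with adjusted p-values from 4.49e-05 to 0.00015 (limma). All 4 still passed with the GC dependence removed but lay within the threshold of 1 (GAB1 -0.79, SOS1 -0.38, SOS2 -0.46 and PTPN11 -0.84). In HepG2 none of these 4 passed (adjusted p from 0.468 to 0.746).

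Of 14 genes of the cascade from RAS to ERK, 13 were tested in each line. In Huh7, 5 passed as higher, 4 as lower and 4 not, where 32.7% and 37.4% of all genes passed as higher and lower, with a median log2 difference of 0.25 (-0.04 with the GC dependence removed). SHOC2, which helps to activate RAF, was lower in resistant Huh7 cells (-1.09, adjusted p = 0.000247, limma), and so was RASA1, which inactivates RAS (-1.54, adjusted p = 0.000174). With the GC dependence removed, SHOC2 was at -0.13 (adjusted p = 0.0908) and RASA1 at -0.97 (adjusted p = 0.00118). In HepG2, 1 of 13 passed, HRAS (0.97, adjusted p = 0.0346), and 12 did not, with a median of -0.08. Of the MEK kinases, which act after RAF, MAP2K1 passed as higher in Huh7 (0.30, adjusted p = 0.0336, limma) but not in HepG2 (-0.28, adjusted p = 0.168). With the GC dependence removed, MAP2K1 was at 0.02 in Huh7 (adjusted p = 0.779). MAP2K2 passed in neither line (adjusted p = 0.186 in Huh7 and 0.725 in HepG2), and in Huh7 it was at -0.23 (adjusted p = 0.0428) with the GC dependence removed.

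Genes that ERK activity induces had medians of opposite sign in the 2 lines. In Huh7, 8 of 8 were tested, of which 6 passed as higher and 2 as lower, where 32.7% and 37.4% of all genes did, with a median log2 difference of 0.91 beside -0.04 over all genes (0.48 with the GC dependence removed). In HepG2, 7 of 8 were tested, of which 0 passed as higher, 2 as lower and 5 not, where 11.6% and 8.43% of all genes passed as higher and lower, with a median of -0.40 beside 0.12. DUSP5, a phosphatase that acts on ERK, had 274, 222 and 241 FPKM in resistant and 71.0, 64.3 and 55.6 in parental Huh7 cells (1.93, adjusted p = 1.92e-05, limma). In HepG2 it had 3.62 to 4.23 FPKM in the 3 resistant samples and 119, 102 and 55.0 in the parental samples (-4.16, adjusted p = 0.000135), and the change of DUSP5 differed between the lines by 6.09 (adjusted p = 1.47e-07). DUSP6, a further ERK phosphatase, rose in Huh7 (36.9 against 15.0 FPKM, 1.25, adjusted p = 3.16e-05), and in HepG2 it was at 28.4 against 37.8 FPKM (-0.40, adjusted p = 0.0756). ETV4, a transcription factor induced by ERK, was called higher in Huh7 (1.19, and 0.65 with the GC dependence removed) and so was DUSP4 (1.12, and 0.73 with it removed), whereas PHLDA1 was lower in both lines (-1.93 in Huh7, adjusted p = 1.08e-05, and -0.82 in HepG2, adjusted p = 0.0178, which became 0.069 when HepG2 resistant replicate 3 was left out). DUSP4 reached the filter in resistant Huh7 cells only.

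Of 9 further kinases that bind sorafenib, 3 were tested in each line and 5 were below 1 FPKM in all samples. FGFR1, a fibroblast growth factor receptor, was called higher in resistant HepG2 cells, with 8.97, 10.6 and 10.4 against 1.27, 1.54 and 1.52 FPKM (6.93-fold, log2 difference 2.17, adjusted p = 0.000139, limma). In Huh7 it was at 4.60 ± 0.382 in resistant and 4.75 ± 0.642 FPKM in parental cells (SD, n = 3 each) and did not pass (adjusted p = 0.809), but with the GC dependence removed it was lower in resistant cells (-0.54, adjusted p = 0.000401). The limit of that step for low genes, given above, may apply to FGFR1 too. Over all 60 genes of the 6 lists, 17 passed as higher and 18 as lower among 43 tested in Huh7, where 32.7% and 37.4% of all genes did. In HepG2, 5 passed as higher and 6 as lower among 39, where 11.6% and 8.43% of all genes did.

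Over the 12 samples, the pathway genes with a pattern most like that of BRAF among 46 candidates were GFRA1 (Pearson r 0.95 on log2(FPKM + 1)) and GAB1 (0.94). Those most like ARAF were NRP2 (0.89) and ETV4 (0.84), and those most like PDGFRB were PDGFA (0.84) and CBL (0.59). The 12 samples form 4 groups of 3, so these correlations describe group means and carry no test. CBL, a ubiquitin ligase that targets active receptors, passed as lower in HepG2 (-0.43, adjusted p = 0.0445, limma).

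The positions of the genes are those of GRCh38 as the files give them. BRAF lies on chromosome 7 from 140719327 to 140924928 (minus strand), ARAF on chromosome X from 47561100 to 47571920 (plus strand) and PDGFRB on chromosome 5 from 150113837 to 150155872 (minus strand). Exons of BRAF share 1239 bases with NDUFB2 on the opposite strand, and those of ARAF share 23 bases with SYN1. Without strand, which the sources used here do not give for the counting, such reads cannot be assigned. NDUFB2 did not fall with BRAF in Huh7 (0.25, adjusted p = 0.0584, limma).

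PDGFRA (54229097 to 54298247), KIT (54657918 to 54740715) and KDR (55078259 to 55125595) are neighbours on chromosome 4, with 359670 bases from PDGFRA to KIT and 337543 from KIT to KDR. All 3 receptors were below 1 FPKM in all samples. Within 500000 bases on either side, 4 of the 8 coding genes including these 3 were at 1 FPKM or more in all 12 samples. These are CHIC2 (8.63 to 29.6 FPKM), SRD5A3 (4.73 to 8.74), TMEM165 (2.04 to 4.01) and CLOCK (2.19 to 8.06). Genes on both sides of the receptors were thus expressed in both lines.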

How the data were processed

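Total RNA of 12 samples was sequenced, and the authors deposited 1 FPKM-like value per gene and sample without naming the unit, the aligner or the counting tool. The submitters' processing notes name GRCh38 and bcl2fastq. Exon lengths and GC content came from GENCODE release 29. With these lengths, the depth of each sample was estimated from 6896 single-exon genes. At that depth, 96.4% of values of up to 2000 reads were within 0.05 of a whole read, over the 27234 Ensembl genes found in GENCODE. The design had assumed that counts or normalized values might be found, and the test for normalized values was used.

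Genes that reached 1 FPKM in 3 or more of the 6 samples compared were fitted on log2(FPKM + 1) with limma 3.58.1 (R 4.3.3, Python 3.11.15), two-sided, with a trend and adjustment over all Ensembl genes. The interaction needed 3 samples in each line. A called gene has an adjusted p under 0.05 and a log2 difference beyond 1. To remove the GC dependence, a lowess curve (span 0.3) against exon GC content was subtracted in each library. The whole curve was subtracted, so the step also recentred each library, and the median log2 difference became 0.01 in both lines. Some genes of the lists are not reported here, and the counts and medians leave them out. The members, gene lists and tests were chosen with earlier results of these data known. Named are the 9 kinases and, per list and line, up to 4 called genes with the smallest adjusted p. VEGFA, VEGFB, PDGFB, PDGFD, CBL, ETV4, HRAS, MAP2K1, MAP2K2, the neighbours and overlapping genes, B2M, ACTB, GAPDH and RPLP0 were named after their values were seen or as context. In simulated data with 200 genes changed 4-fold, 98.5% were recovered in Huh7 and 96% in HepG2. The changed genes were drawn above a minimum level, with a fixed spread and no GC dependence. Recovery of smaller changes was therefore not measured. Alternatives were a pseudocount of 0.1, other filters and scalings, limma-voom on recovered reads, no variance trend, a joint fit of all groups, a block for the replicate number, removal of the GC dependence and leaving out each sample.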

Additional observations from a re-analysis of the deposited data

Results flagged for a closer look

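The difference between resistant and parental cells was not the same in Huh7 and HepG2 (interaction in limma, adjusted p under 0.05) for 16 genes. These are among 17 genes named by the rule and tested in both lines, and 56.3% of all 10688 genes tested passed too. The pathway genes among them had been named because they were called within a line, so a difference between the lines was partly built in. All values are the change in Huh7 minus the change in HepG2 on the log2(FPKM + 1) scale. Among the target kinases these were BRAF (-0.86) and PDGFRB (0.53). Ligands and co-receptors were KITLG (-2.73), PDGFC (-2.02), PDGFA (2.17) and NRP2 (0.53). Adaptors were GAB1 (-1.57), SOS1 (-1.40), SOS2 (-1.12) and PTPN11 (-0.78). In the cascade from RAS to ERK, RASA1 was at -1.71 and SHOC2 at -0.87. Among genes induced by ERK, DUSP5 was at 6.09, DUSP6 at 1.65 and PHLDA1 at -1.11, and FGFR1 was at -2.20. The interaction no longer passed, once the GC dependence was removed, for BRAF, PDGFRB, NRP2 (0.21, adjusted p = 0.21, limma), SOS2 (-0.25, adjusted p = 0.103) or SHOC2 (0.22, adjusted p = 0.0746), and that of PTPN11 did not pass with median-ratio scaling (-0.62, adjusted p = 0.0547) or without Huh7 resistant replicate 3 (-0.70, adjusted p = 0.0528). Of genes named outside that rule, VEGFA (1.02), ETV4 (1.14) and MAP2K1 (0.58) passed, while HRAS (adjusted p = 0.976), MAP2K2 (adjusted p = 0.665), CBL (adjusted p = 0.255) and NDUFB2 (adjusted p = 0.0949) did not.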

How the results depend on the processing

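Of 1045 values of single genes under an alternative, 983 kept their direction and their side of the adjusted p threshold. Another 32 no longer passed, 17 passed in addition and 13 turned. The size of the difference was not part of this count. BRAF in Huh7, no longer called with the GC dependence removed, is therefore among the 983. With the GC dependence removed, 0 of the target kinases were called lower in Huh7, 0 differed between the lines and 0 were called between the parental lines (before, 1, 2 and 1). Pathway genes called in Huh7 then numbered 2 higher and 4 lower, against 5 and 11. Under this alternative the SHOC2 interaction turned to 0.22, PDGFA in Huh7 to -0.15, the ARAF interaction to -0.014, and PDGFRB between the resistant lines to -0.059. The cause was not tested.

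With median-ratio scaling the ARAF interaction passed (0.58, adjusted p = 0.0433, limma), and PDGFRB between the parental lines passed with upper-quartile and median-ratio scaling (-0.47 and -0.52). When each sample was left out in turn, pathway genes called in Huh7 ranged from 3 to 8 higher (3 without Huh7 resistant replicate 1 or 3, 8 without Huh7 parental replicate 1) and from 7 to 11 lower (7 without Huh7 parental replicate 3), and kinases that differed between the lines from 1 to 2. The log2 difference then ranged from -0.10 to 0.081 for PDGFRB and from -0.11 to 0.051 for FGFR1 in Huh7. In HepG2 it ranged from -0.27 to 0.071 for SOS2, -0.019 to 0.26 for SOS1 and -0.047 to 0.35 for RASA1.

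Samples with the same replicate number did not all deviate together (r from -0.23 to 0.08 in Huh7 and from -0.01 to 0.44 in HepG2). With the replicate number as a block, BRAF in Huh7 had an adjusted p of 0.000542 and PDGFRB in HepG2 one of 0.0334, and the block moved the genes passing in HepG2 from 1366 higher and 991 lower to 2111 and 1307. Depth limits KDR, FLT4, KIT and RET, which had at most 7 reads in any sample, and KDR never exceeded 3. It limits FLT1 and PDGFRA in HepG2, with at most 7 and 5 reads, more than in Huh7. There, PDGFRA had 71 to 145 reads and FLT1 had 21 to 24 in resistant samples.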
